A study of Mus musculus with 11 samples.

Results

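The genes described here encode the machinery that makes and uses microRNAs: the Argonaute genes Ago1, Ago2, Ago3 and Ago4, the TNRC6 genes Tnrc6a, Tnrc6b and Tnrc6c, and the processing genes Dicer1, Drosha and Dgcr8. They were taken by gene symbol, and all 10 had a row among the 48709 genes of the count tables. All 10 also passed the filter on low counts (5 or more in no fewer than 50% of samples), as did 17365 genes in all.

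A microRNA is cut from a nuclear hairpin by the Drosha enzyme with its RNA-binding partner Dgcr8, trimmed in the cytoplasm by Dicer1, and loaded into an Argonaute protein. The loaded Argonaute pairs with messenger RNAs, mostly in their 3′ UTR and mostly through the seed of the microRNA, bases 2 to 8 counted from its 5′ end. TNRC6 proteins then bind Argonaute and bring in the enzymes that shorten the poly(A) tail and remove the cap, so that the messenger RNA is repressed and decays.

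Hippocampal neurons were prepared from mouse embryos at embryonic day 17 and treated on day 10 in vitro with lipid nanoparticles, small lipid carriers that are taken up by the cells. The particles of the mimic group (5 samples) held a synthetic miR-181a-5p, and those of the control group (6 samples) held a negative control oligonucleotide, so that both groups were exposed to particles and to a small RNA. RNA was taken after 48 hours, on day 12, and poly(A) libraries were sequenced. According to the methods, hippocampi of several embryos were pooled for a culture, and nothing in the labels says whether replicates were separate cultures, so p-values measure the spread between these samples, which may be technical. The comparison asks what an added microRNA did to the genes on which microRNAs depend. The libraries measured messenger RNA and not the mimic itself. The annotated hairpins of miR-181a (Mir181a-1 and Mir181a-2) held 0 counts in every library.

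The sequences that matter here are the added oligonucleotides and the stretches of the messenger RNAs that their seeds could pair with. The mimic has the sequence of the mouse miR-181a-5p in RefSeq (GRCm38.p6), which is encoded at chr1:137966468-137966490 and again at chr2:38852741-38852763, both on the plus strand. Capitals mark the seed, which miR-181b-5p, miR-181c-5p and miR-181d-5p share.
mimic miR-181a-5p: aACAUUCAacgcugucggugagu
negative control for mimic: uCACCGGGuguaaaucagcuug

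The letters that pair with the mimic's seed are TGAATGT (a 7-base match), and with a further A at the 3′ side TGAATGTA (an 8-base match, which contains the former). They were searched on the messenger strand of the longest 3′ UTR among the protein-coding transcripts of each gene in GENCODE M21. Of the 10 genes, 4 held at least 1 match and 6 held none, with 10 matches in all. Ago2, Ago3 and Tnrc6b held 3 each and Dicer1 held 1. Each match is printed below in a window of 24 bases with the match in capitals and its place on GRCm38.
Ago2 site 1, chr15:73104070-73104093, minus strand, 2829 bases after the stop codon: tgctttaagcaaacTGAATGTgat
Ago2 site 2, chr15:73102313-73102336, minus strand, 4586 bases after the stop codon: gagacctgaaggctTGAATGTAac
Ago2 site 3, chr15:73101793-73101816, minus strand, 5106 bases after the stop codon: tatttgtctcaagtTGAATGTAcc
Ago3 site 1, chr4:126342557-126342580, minus strand, 2908 bases after the stop codon: ttgctcctagctgaTGAATGTcag
Ago3 site 2, chr4:126337665-126337688, minus strand, 7800 bases after the stop codon: cacaaagtgttcacTGAATGTcag
Ago3 site 3, chr4:126334163-126334186, minus strand, 11302 bases after the stop codon: tttttaaagaaaaaTGAATGTAtg
Tnrc6b site 1, chr15:80934603-80934626, plus strand, 5141 bases after the stop codon: tcccacttctgttgTGAATGTggc
Tnrc6b site 2, chr15:80936511-80936534, plus strand, 7049 bases after the stop codon: aggtggtggagtgcTGAATGTgta
Tnrc6b site 3, chr15:80936720-80936743, plus strand, 7258 bases after the stop codon: aagtgtagtacttcTGAATGTgcc
Dicer1 site 1, chr12:104689807-104689830, minus strand, 1777 bases after the stop codon: accaggtgatctttTGAATGTtgt

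**Figure D1:**
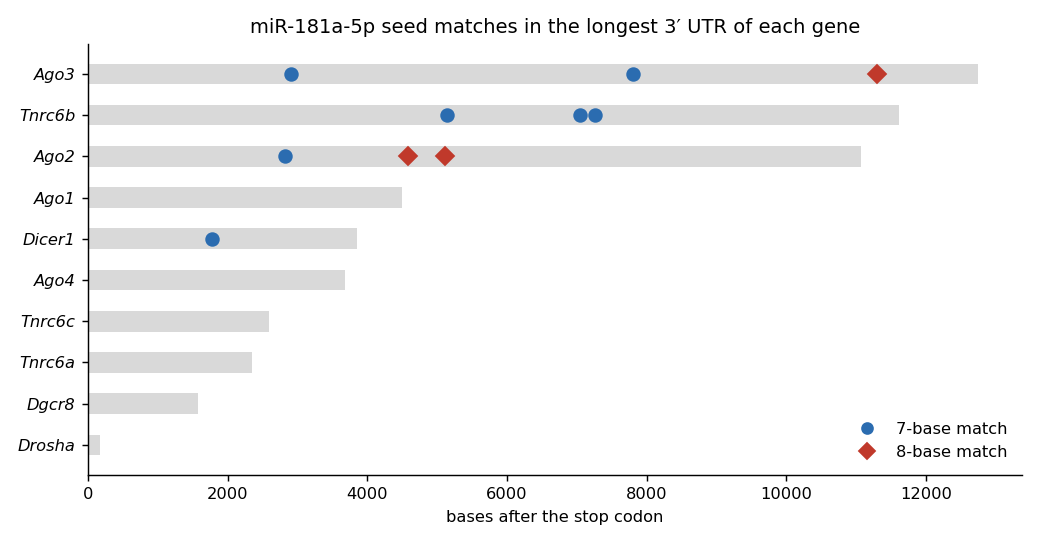
Grey bars give each gene's longest 3′ UTR in bases after the stop codon, and marks give the places of 7-base (circles) and 8-base (diamonds) matches to the miR-181a-5p seed. Ago3, Tnrc6b and Ago2, the genes with 3 matches each, also have the longest 3′ UTRs, of 12742, 11609 and 11064 bases.

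Matches were spread through these long 3′ UTRs, and the match nearest to a stop codon was that of Dicer1, at 1777 bases. Of the 14489 tested genes with an annotated 3′ UTR, 18.5% held the 7-base match, 6.00% the 8-base match and 1.10% at least 3 matches. Length goes with these shares. Among the 33 tested genes with a 3′ UTR of at least 11000 bases, which include Ago2, Ago3 and Tnrc6b, 97.0% held the match and 57.6% held at least 3. The 3′ UTRs without a match were those of Ago1 (4491 bases), Ago4 (3682), Tnrc6c (2588), Tnrc6a (2345), Dgcr8 (1574) and Drosha (169). The seed match of the control oligonucleotide, CCCGGTG, stood once in Ago2 and in none of the other 9 genes, against 2.87% of all tested genes. Which 3′ ends these cells used was not tested.

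None of the 10 genes differed between mimic and control in edgeR's quasi-likelihood test with Benjamini-Hochberg adjustment over all tested genes, where 2.85% of the genes did (495 genes, with 1.77% lower and 1.08% higher in mimic). That balance depends on the scaling, since 307 genes were lower and 188 higher with TMM factors, and 226 lower and 234 higher with upper quartile factors. It also depends on the samples and the model. Without control replicate 4, 199 were lower and 201 higher, and with replicate number as a block 154 were lower and 174 higher. Without control replicate 1, 218 genes were called (150 lower, 68 higher). DESeq2 on the same counts, with 564 genes called, and limma on the authors' normalised table, with 31 called, also called 0 of the 10 genes. With so few calls in all, the result in limma carries little weight. Without adjustment, p was under 0.05 in edgeR for 5 of the 10, of which 4 had a lower mean in mimic (Ago2, Ago3, Tnrc6b and Dicer1) and 1 a higher mean (Tnrc6a). The shares of all tested genes at that unadjusted level were 8.41% lower and 7.30% higher. DESeq2 gave the same 5 genes, and limma gave Ago2, Ago3 and Tnrc6b. In edgeR, Dicer1 was no longer among them without control replicate 4 or 5 or mimic replicate 2 or 3. Drosha, higher in mimic, joined them without control replicate 2 or 3 or mimic replicate 3, and with upper quartile factors. In no gene of the 10 were the groups free of overlap, which held for 2.89% of all genes.

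All differences were small. The 95% intervals of the 10 genes lay between -12.9% and 14.3% relative to control. Of the 495 called genes, 102 had a log2 fold change of less than 0.12 in absolute value, as did 72.4% of all tested genes. The 10 genes were read at 260 to 12893 counts per library, where counting alone gives a coefficient of variation of 1.47% to 6.20% in the smallest count of each gene. Their coefficients of variation within a group were 1.51% to 6.93%, so that part of the spread was counting error. In bulk RNA, fewer cells of a type and less RNA per cell cannot be told apart.

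The Argonautes are the proteins that hold the microRNA. Ago2 is the member of the family able to cut a fully paired RNA, and the others act through the partners they recruit. Ago1, Ago3 and Ago4 are neighbours on the minus strand of chromosome 4, and Ago2 lies on chromosome 15. Values are given in CPM (counts per 1000000 counts of the library, scaled by edgeR's TMM factors).

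Ago2 (ENSMUSG00000036698, chr15:73095844-73184935) was measured at 258 CPM in the lowest, 271 in the median and 284 in the highest control sample. The mimic samples stood at 271, 251, 250, 262 and 257 CPM. Of the 5 mimic samples, 3 lay below every control sample and the other 2 inside the control range. The means were 272 ± 9.48 in control (SD, n = 6) and 258 ± 8.61 in mimic (SD, n = 5), which gave -0.076 on the log2 scale (SE 0.028). The 95% interval ran from -8.79% to -1.33%, and the adjusted p in edgeR was 0.151.

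Ago3 (ENSMUSG00000028842, chr4:126331704-126429556) ranged from 45.9 over a median of 49.0 to 51.8 CPM in control. In mimic it was 48.2, 42.3, 42.3, 44.2 and 48.8 CPM. Again 3 mimic samples fell below every control sample, while replicates 1 and 5 sat near the control median. The means were 48.9 ± 1.98 (SD, n = 6) and 45.2 ± 3.13 (SD, n = 5). Its log2 fold change of -0.12 (SE 0.040) was the lowest of the 10 genes, with an edgeR adjusted p of 0.124. Without mimic replicate 5 it was -0.14, and the adjusted p of 0.0456 then passed.

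Ago1 (ENSMUSG00000041530, chr4:126435012-126468583) varied least. It ranged from 192 over 196 to 199 CPM in control and was 195, 193, 192, 191 and 186 CPM in mimic. Its log2 fold change was -0.033 (SE 0.024, edgeR adjusted p 0.570). Ago4 (ENSMUSG00000042500, chr4:126489541-126533472) was low, from 12.8 over 13.4 to 15.2 CPM in control and from 13.7 to 15.3 CPM in mimic, with 4 of the 5 mimic samples inside the control range. Its log2 fold change of 0.081 had the widest error of the 10 genes (SE 0.054, edgeR adjusted p 0.530).

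TNRC6 proteins, also known as GW182 proteins, are the scaffold between Argonaute and the deadenylases. Tnrc6a and Tnrc6b had log2 fold changes of opposite sign, and Tnrc6c stood between them.

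Tnrc6b (ENSMUSG00000047888, chr15:80711313-80941085) had the smallest p of the 10 genes and ranked 721 of the 17365 tested. It ranged from 180 over 191 to 198 CPM in control. In mimic it was 182, 172, 165, 175 and 186 CPM. Here 3 mimic samples lay below every control sample, and 4 control samples lay above every mimic sample. The means were 189 ± 6.96 (SD, n = 6) and 176 ± 8.35 (SD, n = 5), or -0.099 on the log2 scale (SE 0.031). As a percentage this was -6.64% (95% interval -10.6% to -2.46%). The edgeR adjusted p was 0.0806, with a range of 0.0192 to 0.296 over 18 alternative settings. It passed without mimic replicate 5 (0.0267) and without the count filter (0.0192).

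Tnrc6a (ENSMUSG00000052707, chr7:123123885-123195296) ranged from 116 over 120 to 128 CPM in control. It was 134, 123, 119, 134 and 127 CPM in mimic. Only replicates 1 and 4 of the mimic group exceeded every control sample. The means were 120 ± 4.48 (SD, n = 6) and 127 ± 6.57 (SD, n = 5), or 0.088 on the log2 scale (SE 0.033), with an edgeR adjusted p of 0.160. Without mimic replicate 3, the lowest of its group, it was 0.12 and passed at an adjusted p of 0.0479. Tnrc6c (ENSMUSG00000025571, chr11:117654289-117763439) ranged from 151 over 155 to 164 CPM in control and from 144 to 157 CPM in mimic, or -0.034 on the log2 scale (SE 0.030, edgeR adjusted p 0.674).

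**Figure D2:**
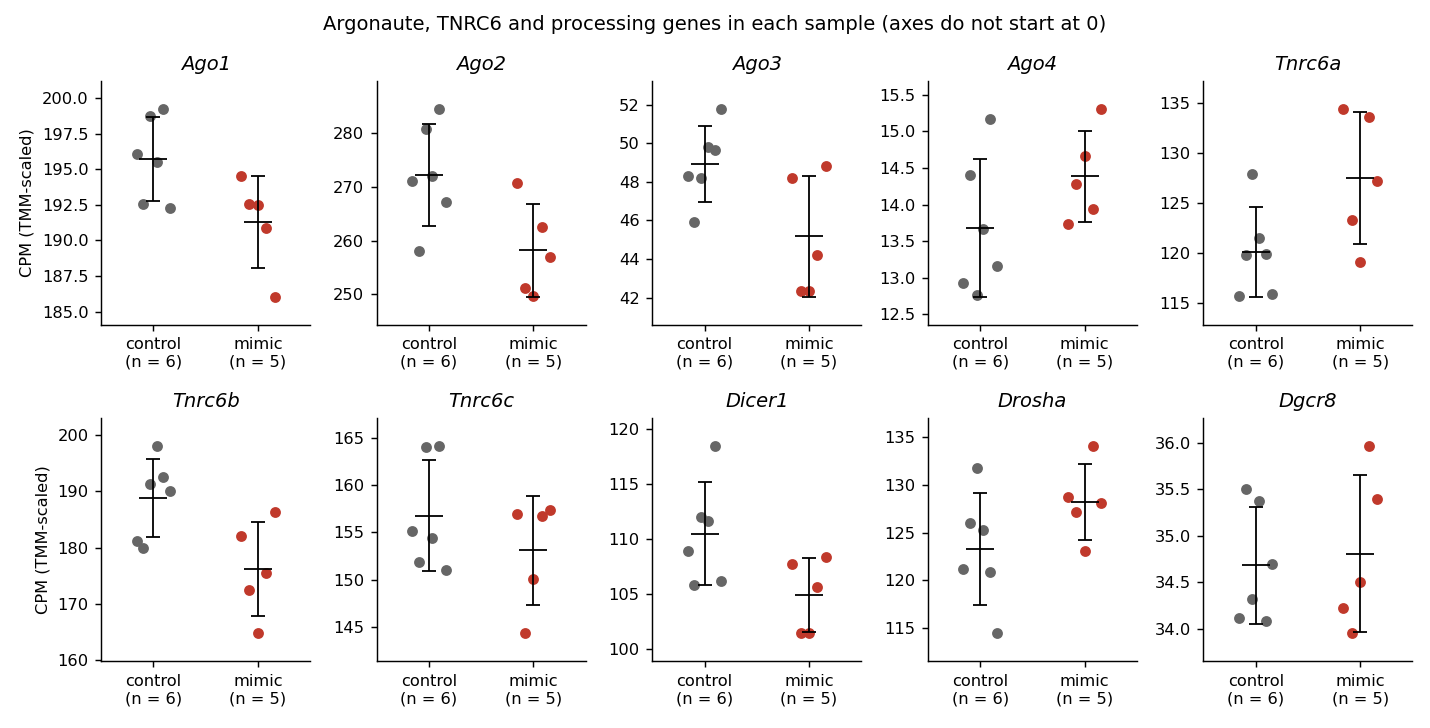
Each panel shows 1 gene, with a point for each control (grey, n = 6) and mimic (red, n = 5) sample in TMM-scaled CPM, and the mean with its SD in black. The vertical axes do not start at 0, and in all 10 panels the groups overlap.

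The processing genes differed in sign. Dicer1 (ENSMUSG00000041415, chr12:104687742-104751952), which cuts the precursor hairpin to its mature length, ranged from 106 over 110 to 118 CPM in control. It was 108, 101, 101, 106 and 108 CPM in mimic, so that 3 of the 5 mimic samples lay below every control sample. The means were 110 ± 4.70 (SD, n = 6) and 105 ± 3.33 (SD, n = 5), or -0.074 on the log2 scale (SE 0.031, edgeR adjusted p 0.227).

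Drosha (ENSMUSG00000022191, chr15:12824815-12935291), the nuclear nuclease, ranged from 114 over 123 to 132 CPM in control. In mimic it was 129, 127, 123, 134 and 128 CPM. All but 1 of the mimic samples lay inside the control range, and the log2 fold change was 0.058 (SE 0.031, edgeR adjusted p 0.388). Dgcr8 (ENSMUSG00000022718, chr16:18253948-18289246), its partner, was nearly flat, at 34.1 over 34.5 to 35.5 CPM in control and 34.0 to 36.0 CPM in mimic. Its log2 fold change was 0.0057 (SE 0.034), the 95% interval ran from -4.41% to 5.43%, and the edgeR adjusted p was 0.965.

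Each gene was also compared by an exact permutation test of mean log2 CPM over the 11 samples (two-sided, with 0.00433 as the smallest p it can give). The unadjusted p of this test was 0.0303 for Tnrc6b, 0.0346 for Ago2, 0.0390 for Ago1 and 0.0476 for both Ago3 and Dicer1. It was 0.0649 for Tnrc6a, 0.147 for Drosha, 0.173 for Ago4, 0.333 for Tnrc6c and 0.775 for Dgcr8. The test was not run over all genes, so no share of all genes stands beside these values.

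**Figure D3:**
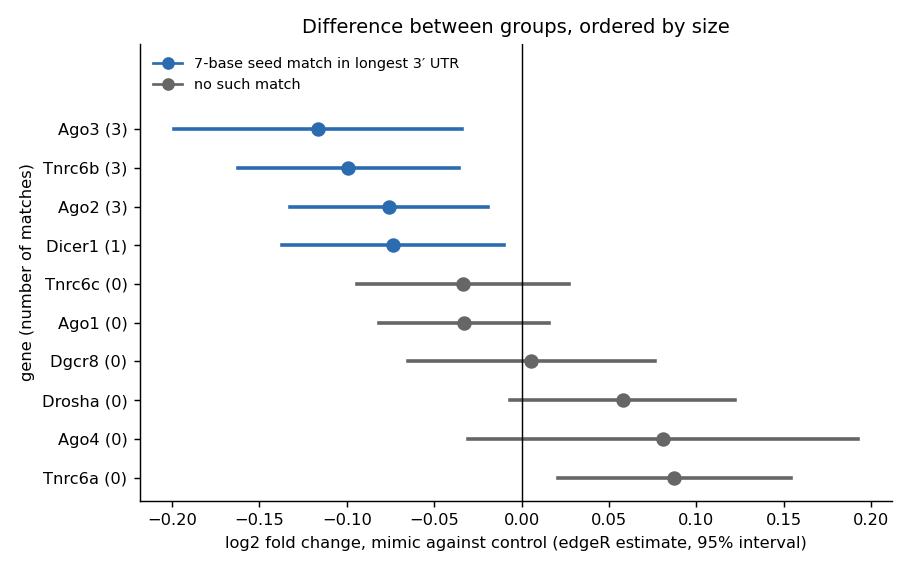
Points give the log2 fold change of mimic against control from edgeR and lines its 95% interval, with genes that hold a seed match in blue and the others in grey. The 4 genes with a match have the lowest values, from -0.12 for Ago3 to -0.074 for Dicer1, and Tnrc6a has the highest, at 0.088.

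Ordered by log2 fold change, the 4 genes with a seed match in the 3′ UTR (Ago3, Tnrc6b, Ago2 and Dicer1) came first, at -0.12, -0.099, -0.076 and -0.074. The 6 genes without a match followed, from -0.034 for Tnrc6c and -0.033 for Ago1 to 0.088 for Tnrc6a. The medians were -0.088 over the 4 and 0.032 over the 6. The same split over all tested genes gave medians of -0.024 for the 2676 genes with the match and 0.0055 for the 11813 without it. At the unadjusted level, 17.4% of the former and 7.48% of the latter were lower in mimic.

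The length of the 3′ UTR moved with the same values. Among tested genes with a 3′ UTR of at least 3500 bases, the median log2 fold change was -0.041 for the 830 with the match and -0.022 for the 868 without it. The 33 genes with at least 11000 bases had a median of -0.064, and 36.4% of them were lower at the unadjusted level. Ago2, Ago3 and Tnrc6b are among these 33 and among those lower, so the set is not a separate background for them. Ago1 and Ago4, with 3′ UTRs of 4491 and 3682 bases and no match, stood at -0.033 and 0.081, and Dicer1, with 3851 bases and 1 match, at -0.074. For the 10 genes, length and match cannot be told apart. Ago3, Tnrc6b and Ago2, with 3 matches each, stood at -0.12 (SE 0.040), -0.099 (SE 0.031) and -0.076 (SE 0.028). Dicer1, with 1 match, had an SE of 0.031. Tnrc6b held 3 matches of 7 bases and none of 8, and Ago2 held 2 of 8 bases. The edgeR intervals of these genes overlapped, so their order was not resolved. Whether the values depend on the number or kind of match was not tested.

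The study's list of predicted miR-181a-5p targets named 2 of the 10 genes, Ago2 and Tnrc6b, and 5.85% of all tested genes. It did not name Ago3 or Dicer1. The study also listed targets of the microRNAs miR-148a-3p and miR-146a-5p, which were not added to these cultures. The miR-148a-3p list named 8 of the 10 genes (all but Ago3 and Drosha) against 3.45% of all tested genes, and the miR-146a-5p list named Tnrc6a alone.

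Per length of exon, Ago1 and Drosha were the most abundant of the 10 genes and Ago4 the least. Levels are given here in CPM per kilobase of exon over the control samples, with exons joined over all annotated transcripts. Ago1 stood at 24.1 ± 0.364, Drosha at 20.8 ± 0.987 and Ago2 at 19.4 ± 0.675 (SD, n = 6). The control ranges of Drosha and Ago2 overlapped, and no other neighbours in the order did. Ago1 lay above 88.5% of all tested genes on this scale.

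The TNRC6 genes followed, with Tnrc6c at 12.2 ± 0.458, Tnrc6a at 9.45 ± 0.353 and Tnrc6b at 7.98 ± 0.294 CPM per kilobase (SD, n = 6). Dicer1 stood at 6.60 ± 0.280 and Dgcr8 at 4.51 ± 0.0816. Ago3 and Ago4 were lowest, at 2.95 ± 0.119 and 1.97 ± 0.135, and Ago4 still lay above 39.9% of all tested genes. Drosha and Dgcr8, which act as a complex, were not at like levels, with Drosha 4.61 ± 0.223 times as high per length as Dgcr8 in control and 4.78 ± 0.112 times in mimic. With the length of the longest protein-coding transcript in place of all exons, Dicer1 and Tnrc6b changed places and overlapped in control range. On that length Ago1 (26.6 to 27.6) and Drosha (25.0 to 28.8) also overlapped, so that the lead of Ago1 over Drosha rests on the exon length.

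**Figure D4:**
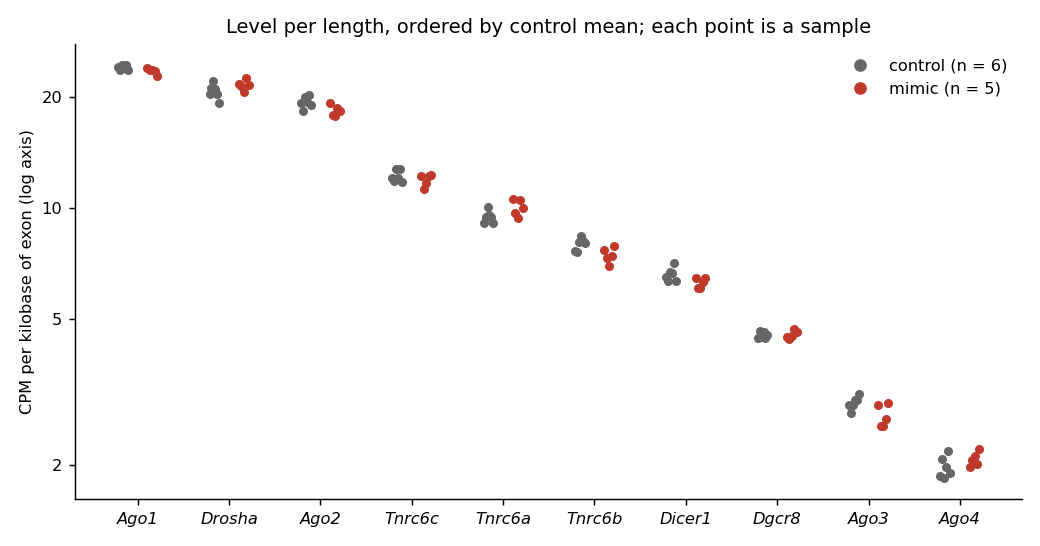
Each point is a sample, in CPM per kilobase of exon on a log axis, with control in grey (n = 6) and mimic in red (n = 5), and genes are ordered by their control mean. Control means run from 24.1 for Ago1 to 1.97 for Ago4, and control and mimic points overlap in all 10 genes.

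Within the Argonaute family, Ago1 gave 49.8% ± 0.477 of the summed level per length in control, Ago2 40.1% ± 0.529, Ago3 6.10% ± 0.246 and Ago4 4.07% ± 0.275 (SD, n = 6). In mimic the shares were 50.4% ± 0.887, 39.3% ± 0.684, 5.83% ± 0.358 and 4.43% ± 0.249 (SD, n = 5), and each overlapped its control range. Ago1 and Ago2 together carried most of the family in both groups.

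Within the TNRC6 family the shares of Tnrc6a and Tnrc6b did not overlap between the groups, and those of Tnrc6c did. Shares of a family add up to the whole, so they are not separate results. How often such shares separate among other genes was not tested. Tnrc6a gave 31.1% to 32.7% of the summed level in control and 33.2% to 34.9% in mimic. Tnrc6b gave 26.1% to 27.9% in control and 24.6% to 26.1% in mimic, where the highest mimic sample nearly reached the lowest control sample. Tnrc6c gave 40.1% to 42.1% and 39.8% to 41.7%, which overlapped. The ratio of Tnrc6a to Tnrc6b, chosen after the values were seen, was 1.19 ± 0.0477 in control (1.14 to 1.25, n = 6) and 1.35 ± 0.0542 in mimic (1.27 to 1.42, n = 5). Of the 45 ratios between the 10 genes, 4 did not overlap between groups, or 8.89%, against 3.72% of all gene pairs whose means reached 10 CPM. All 4 held Tnrc6a, against Tnrc6b, Tnrc6c, Dicer1 and Ago2, so that they share a gene and are not separate results.

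The genes whose values over the 11 samples were most like those of Tnrc6b were Ntrk3, a neurotrophin receptor, Zbtb20, a transcription factor of hippocampal neurons, and Usp31, a deubiquitinase. Likeness was the root mean square difference of mean-centred log2 CPM, which was 0.021, 0.028 and 0.030 for these genes and 0.098 in the median of the 9663 genes compared. Their log2 fold changes were -0.094, -0.071 and -0.093, and none passed in edgeR (adjusted p 0.0583, 0.448 and 0.0580). Likeness was taken over both groups, so fold changes near that of Tnrc6b follow from the choice of these genes. They held 4, 3 and 1 seed matches, where 18.5% of tested genes with an annotated 3′ UTR held any. The lengths of their 3′ UTRs were not compared.

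The other genes of the pathway were described from 8 lists with 101 names, of which 97 genes were tested. Of these, 2 fell in mimic, none rose, and 95 did not pass in edgeR. The called share was 2.06%, against 2.85% of all genes. At the unadjusted level 6 of the 97 were lower and 5 higher, beside 8.41% lower and 7.30% higher of all tested genes. DESeq2 called the same 2. The median log2 fold change of the 97 genes was -0.0030, beside -0.00015 over all tested genes and -0.033 over the 10 genes above.

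Among 15 genes of decapping and decay, which act after TNRC6 has been recruited, only Dcp2 passed. It encodes the enzyme that removes the cap. It ranged from 57.9 to 61.1 CPM in control and was 51.2, 53.7, 49.5, 52.0 and 59.0 CPM in mimic, so that 4 of the 5 mimic samples lay below every control sample. The means were 59.2 ± 1.14 (SD, n = 6) and 53.1 ± 3.62 (SD, n = 5), or -0.16 on the log2 scale (SE 0.036), and the edgeR adjusted p was 0.0153. Its 3′ UTR held 2 matches of 7 bases, and the study's miR-181a-5p list names it. The adjusted p was 0.0588 without control replicate 1, 0.0605 without mimic replicate 3 and 0.0556 without mimic replicate 4, and it was 0.149 in limma.

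The other called gene was Mir9-3hg, a host transcript of the neural microRNA miR-9, among 10 tested host transcripts. It ranged from 34.9 to 36.7 CPM in control and was 34.8, 31.1, 34.5, 31.9 and 30.2 CPM in mimic, and the groups did not overlap. Its log2 fold change was -0.14 (SE 0.040, edgeR adjusted p 0.0446). This call held in 7 of 18 alternative settings, with adjusted p values of 0.0199 to 0.167. Host transcripts as a list had the lowest median, -0.049, with 8 of 10 genes lower in mimic.

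No gene passed in the other 6 lists. The gene with the smallest p among 13 of nuclear processing and export was Mettl3, the methyltransferase that marks primary microRNAs, at 23.2 ± 0.328 CPM in control (SD, n = 6) and 25.0 ± 0.961 in mimic (SD, n = 5). Its groups did not overlap, but the edgeR adjusted p was 0.163. Among 5 Dicer partners and related genes it was Trim71, a repressor of messenger RNAs in early development, at only 5.35 ± 0.355 and 4.67 ± 0.305 CPM and with 4 seed matches, 3 of them of 8 bases (log2 fold change -0.17, SE 0.081, edgeR adjusted p 0.286).

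Chaperones that load Argonaute lay close to zero, between -0.049 for Hspa4 (edgeR adjusted p 0.388) and 0.046 over 11 genes. Among 16 deadenylation genes, the deadenylase subunit Pan2 had the smallest p, at 0.11 on the log2 scale (SE 0.044, edgeR adjusted p 0.208). Among 17 Argonaute cofactors it was Ajuba, a LIM protein, at 0.27 (SE 0.095, edgeR adjusted p 0.138) and 3.95 CPM in control. Among 10 genes of small RNA tailing and decay, 8 were higher in mimic, with a median of 0.031, and the exonuclease Dis3l2 had the smallest p (0.082, SE 0.037, edgeR adjusted p 0.272).

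**Figure D5:**
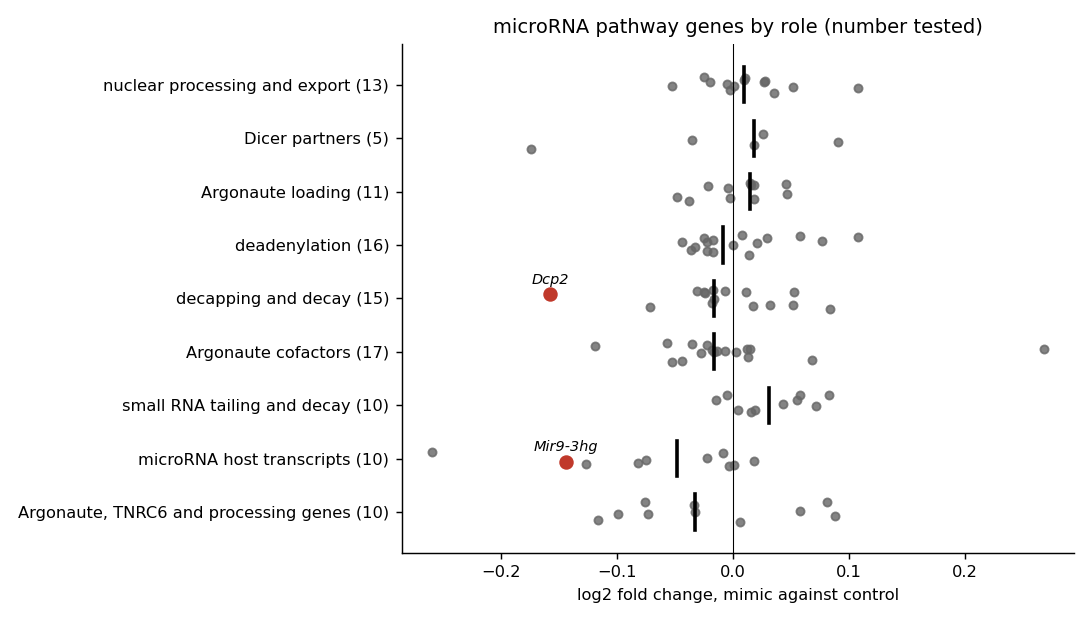
Each point is a tested gene at its log2 fold change of mimic against control, grouped by role, with the list's median as a black bar and called genes in red. Only Dcp2 (-0.16) and Mir9-3hg (-0.14) passed, and the list medians lie between -0.049 and 0.031.

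Of the 97 pathway genes, 87 had an annotated 3′ UTR, and in these the genes with the seed match also had the lower median. The 24 genes with the match had a median log2 fold change of -0.018 and 12.5% of them were lower at the unadjusted level. The 63 without it had a median of 0.012 and 1.59% were lower. Both shares lay below those of all tested genes, 17.4% with the match and 7.48% without it. Higher at that level were 0% of the 24 and 7.94% of the 63, against 5.08% and 8.80% of all tested genes. Of the 24, 1 gene was called, Dcp2, or 4.17%, close to the 4.48% called lower among all tested genes with the match.

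Markers of cell types moved between the groups and are given here beside the results. Neuronal and hippocampal markers were present in every sample, as the label of the cells has it. The summed level of 8 neuronal markers was 6580 to 6747 CPM in control and 6329 to 6474 CPM in mimic, with no overlap. Of these, Slc17a7 fell (log2 fold change -0.14, edgeR adjusted p 0.0239). The sums of 5 hippocampal markers overlapped, at 2063 to 2209 CPM in control and 1948 to 2201 CPM in mimic. Of these 5, only Prox1 passed, lower in mimic (-0.21, adjusted p 0.0168). Zbtb20, Neurod6 and Grik4 were lower and Wfs1 was higher (0.12, adjusted p 0.0754), without passing. The summed level of 7 fibroblast or vascular markers was 236 to 364 CPM in control and 376 to 499 CPM in mimic, and that of 5 markers of dividing cells 51.7 to 59.7 and 63.1 to 70.6 CPM, again with no overlap. Cdh5, Top2a and Cdk1 rose among them (edgeR adjusted p 0.00713, 0.00188 and 0.0203). Cdh5 was the only fibroblast or vascular marker to pass and was low, at 1.77 CPM in control. Col3a1, Col1a2 and Col1a1, the highest of that list, did not pass (edgeR adjusted p 0.142, 0.0609 and 0.117). Pecam1 had a log2 fold change of 0.053 (edgeR adjusted p 0.958). Astrocyte markers were present at 2343 to 2629 CPM in control and 2194 to 2455 CPM in mimic, oligodendrocyte lineage markers at 310 to 373 and 284 to 326 CPM, and microglial markers at 12.8 to 13.3 and 11.2 to 13.1 CPM. The sums of these last 3 lists overlapped between groups, none of their markers passed, and no marker of any list was at 0 in every sample. The part of these shifts in the values of the 10 genes was not tested.

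Overlapping genes and shared sequence limit 2 of the values. Exons of Dgcr8 share 825 bases with Trmt2a on the other strand, and those of Ago2 share 219 bases with Chrac1. The strand setting of the counting is not given in the sources used here, so reads there could not be told apart. Of the 50-base stretches of Dgcr8 transcripts, 26.0% also occur in transcripts of another gene. Between 0% and 3.52% did in the other 9 genes, and at most 1.73% of those of an Argonaute gene were shared with another Argonaute.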

How the data were processed

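Poly(A) RNA from 11 samples was read as single-end reads of 50 bases, and the authors aligned it with STAR 2.5.2b and counted it with featureCounts (Subread 1.5.1), per the labels and methods. They deposited raw counts per gene and sample (17287168 to 48091231 in all) and a table of signal normalised by size factors, which was used for 1 alternative. The 10 genes and all lists were chosen with earlier results of these data known. Groups came from the labels. Genes reaching 5 counts in 50% of samples or more, the study's filter, were fitted in edgeR 4.0.16 (TMM, robust quasi-likelihood, Benjamini-Hochberg over 17365 genes, adjusted p under 0.05), which was tested on simulated data. Text names the 10 genes, each list's called genes or else that with the smallest p, and the 3 genes most like Tnrc6b. Identifiers matched GENCODE M21 for 48349 of 48709 genes. The names Mir181a-1hg and Mir100hg were not matched, and Lin28a and Mir155hg were too low to be tested. Longest 3′ UTRs were taken from protein-coding transcripts. Alternatives were DESeq2 1.42.0, RLE and upper quartile factors, other count filters, each sample left out, a replicate block and limma 3.58.1 on log2(signal + 1). Intervals are edgeR's, and permutation tests used scipy 1.17.1.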

Additional observations from a re-analysis of the deposited data

How the results depend on the processing

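Of 180 values (10 genes in 18 alternatives), 174 kept their sign and their side of the threshold, 4 crossed it and 2 changed sign. Ago1, Ago2, Ago4, Tnrc6c, Dicer1, Drosha and Dgcr8 were called in none of these, and 9 of the 10 genes, all but Dgcr8, kept their sign throughout. Dgcr8, which is near zero, stood at -0.00064 without control replicate 1 and at -0.0036 without mimic replicate 4 and reached at most 0.019 when 1 sample was left out. Leaving out 1 sample gave 218 to 491 called genes over the whole table (141 to 295 lower, 68 to 229 higher), 0 to 2 of the 10 genes and 0 to 2 of the pathway genes. The log2 fold change then ran from -0.14 to -0.091 for Ago3, from -0.12 to -0.071 for Tnrc6b and from 0.070 to 0.12 for Tnrc6a. With no filter on counts, calls numbered 785 (485 lower, 300 higher), of which 1 was among the 10 (Tnrc6b, -0.10). With upper quartile factors 1 pathway gene was called. No other scaling moved the median of all genes by more than 0.011. In limma 31 genes were called (17 lower, 14 higher), none of them pathway genes, and 3 of the 10 genes had an unadjusted p under 0.05. The cause of these changes was not tested.

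Same-numbered samples did not deviate together, with correlations of -0.020 to 0.013 over 5 pairs, inside the -0.056 to 0.069 of the 25 other pairs. These values gave no sign of pairing by number. They cannot tell whether samples of the same number shared a culture. With a replicate block over numbers 1 to 5, 328 genes were called (154 lower), 0 of the 10 and 1 pathway gene, Dcp2. The seed matches stood in the same 4 genes when 3′ UTRs of all annotated transcripts were searched.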
